A study of Mus musculus with 56 samples.

Results

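The Toll-like receptor genes of mouse macrophages were examined by ChIP-seq, which maps where a protein or a histone mark sits on DNA. The set held the 10 genes Tlr1 to Tlr9 and Tlr13, of 20352 genes named in 56 deposited peak lists, and its peaks were those that the authors' annotation assigned to one of these genes as the nearest start. It took 2556 of 1610519 peaks. All samples were bone marrow-derived macrophages (BMDMs) of wild-type C57BL/6 mice aged 8 to 12 weeks, differentiated for 6 days with L929 supernatant, and each of the 28 groups had 2 samples. In the first experiment the cells were untreated or received IL-4 at 20 ng/ml for 1 hr, with antibodies to the transcription factor PU.1, the acetyltransferase p300, the deacetylases HDAC1, HDAC2 and HDAC3, acetylated histone H3 (H3K27Ac), and the initiating (RNAPII-pS5) and elongating (RNAPII-pS2) forms of RNA polymerase II. In the second, RNAPII-pS5, RNAPII-pS2 and the NF-κB subunit p65 were mapped in ctrl/ctrl cells, in cells given IL-4 at 20 ng/ml for 24 hr (IL-4 PT/ctrl), in cells given LPS at 100 ng/ml for 1 hr (ctrl/LPS), and in cells given both in that order (IL-4 PT/LPS).

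Toll-like receptors recognize conserved microbial molecules. Tlr1, Tlr2, Tlr4, Tlr5 and Tlr6 act at the cell surface, where Tlr2 pairs with Tlr1 or Tlr6 to bind bacterial lipopeptides, Tlr4 binds LPS together with Ly96 and Cd14, and Tlr5 binds flagellin. Tlr3, Tlr7, Tlr8, Tlr9 and Tlr13 act in endosomes and sense nucleic acids, namely double-stranded RNA (Tlr3), single-stranded RNA (Tlr7 and Tlr8), CpG DNA (Tlr9) and bacterial ribosomal RNA (Tlr13). Their signals run through the adaptors Myd88 and Ticam1 to NF-κB, which enters the nucleus and binds DNA, and macrophages carry most of these receptors. LPS is thus the ligand of a member of the set, and p65 is a factor that acts downstream of the set and also binds DNA near its members.

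Several samples stood apart or went against their labels. In the 4 lists of RNAPII-pS2 after 1 hr, treated and untreated, the peak names carried the treatment opposite to the label, so that every sign given for them below would turn under the names; they are written as libraries labelled untreated or labelled IL-4. The HDAC3 samples cite the same antibody catalogue number as H3K27Ac. The paper's reagent list gives HDAC3 a number of its own, while its ChIP methods repeat the shared one. Untreated p300 replicate 1 had 44787 peaks, against 66710 to 69360 in the other 3. The p65 lists held 26305 and 26820 peaks in ctrl/LPS and 36738 and 38955 in IL-4 PT/LPS, against 9556 to 11026 without LPS. The RNAPII-pS5 lists of that experiment held 14476 to 18207 with LPS and 19279 to 22149 without. Of 8 macrophage markers, 5 had an RNAPII-pS5 peak and 3 an H3K27Ac peak within 1 kb of the start in both untreated samples of the 1 hr experiment (the defining markers Lyz2 and Spi1 had none), while of 19 markers of other cell types only the neutrophil gene S100a8 did, in both marks. The files give peaks but no reads, so the depth of sequencing is unknown, and only the length of each list hints at it.

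The 10 genes lie on 7 chromosomes of mm10. By GENCODE, Tlr1 (chr5:64924679-64933563) and Tlr6 (chr5:64952031-64960097) are neighbours on the minus strand of chromosome 5, and Tlr8 (chrX:167242696-167264329) and Tlr7 (chrX:167304929-167330558) are neighbours on the minus strand of the X chromosome. Tlr13 lies elsewhere on the X chromosome (chrX:106143204-106160493, plus strand), Tlr2 at chr3:83836272-83841767 (minus), Tlr3 at chr8:45395665-45411080 (minus), Tlr4 at chr4:66827584-66930284 (plus), Tlr5 at chr1:182954788-182976044 (plus) and Tlr9 at chr9:106222598-106226883 (plus). Members differed in how many peaks they drew, from 86 for Tlr3, which had a peak in 42 of 56 samples, to 482 for Tlr4. Of all member peaks, 17.7% lay within 1 kb of the start, against 20.1% over all genes, and 62.1% were intergenic, against 39.0%. Tlr6 had the highest share of promoter peaks (58.5%) and Tlr7 the lowest (7.14%), and the farthest peak lay 1017163 bp from the start of Tlr4, so that a distant peak is tied to a member only by being nearest to its start.

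In untreated cells the promoters of the set were occupied to different degrees. A p300 peak within 1 kb of the start was present in both untreated samples at all 10 members, and an RNAPII-pS5 peak at 10 in the LPS experiment and at 9 in the 1 hr experiment, where Tlr7 lacked it. PU.1, the factor that defines macrophages, had such a peak at 8 members, all but Tlr2 and Tlr7. H3K27Ac had one at 6 (Tlr1, Tlr3, Tlr4, Tlr5, Tlr8 and Tlr9), HDAC1 and HDAC2 at the same 4 (Tlr4, Tlr5, Tlr6 and Tlr9), HDAC3 at Tlr4 and Tlr5, and p65 at Tlr2, Tlr4, Tlr5 and Tlr9. RNAPII-pS2 marked 9 promoters in the LPS experiment and 3 in the libraries labelled untreated of the 1 hr experiment.

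The sequences below are those under peaks at Tlr2, Tlr4, Tlr7 and Tlr8 whose values are described later, and no result rests on their letters. Each is read 5′ to 3′ from the plus strand of mm10, all but the last around a peak centre. Capitals mark matches on either strand to the NF-κB motif, to the PU.1 motif AGGAAGT or to the STAT6 motif (TTC, any 4 bases, GAA). STAT6 is the transcription factor that IL-4 activates. The first is the p300 peak 24.2 kb downstream of the Tlr4 start (chr4:66851959-66852159), which GENCODE places inside the long form of the gene and the RefSeq-based annotation of the authors calls intergenic, and which overlaps no exon. The second is the p65 peak 21.4 kb upstream of the Tlr2 start (chr3:83862906-83863106), intergenic. The third is the p300 peak 13 kb upstream of Tlr8 (chrX:167276703-167276903), intergenic, the fourth the p300 peak 23.3 kb upstream of Tlr7 in an intron of Prps2 (chrX:167353764-167353964), and the last a stretch of 27 bases at the annotated Tlr2 start (chr3:83841763-83841789). That stretch was cut around its NF-κB matches inside a wider p65 region (chr3:83841450-83842015) and does not mark the peak centre.
Tlr4 downstream: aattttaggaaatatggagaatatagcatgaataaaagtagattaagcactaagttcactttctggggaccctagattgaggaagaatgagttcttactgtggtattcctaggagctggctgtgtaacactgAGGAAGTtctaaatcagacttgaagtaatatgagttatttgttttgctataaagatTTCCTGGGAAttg
Tlr2 upstream: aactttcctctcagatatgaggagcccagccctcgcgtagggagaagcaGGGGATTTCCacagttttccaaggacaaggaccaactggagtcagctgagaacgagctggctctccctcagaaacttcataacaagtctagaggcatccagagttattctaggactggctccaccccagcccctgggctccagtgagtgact
Tlr8 upstream: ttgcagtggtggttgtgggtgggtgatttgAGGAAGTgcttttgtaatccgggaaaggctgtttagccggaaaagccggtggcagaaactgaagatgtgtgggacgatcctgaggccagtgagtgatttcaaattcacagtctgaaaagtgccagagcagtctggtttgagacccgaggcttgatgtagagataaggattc
Tlr7 upstream: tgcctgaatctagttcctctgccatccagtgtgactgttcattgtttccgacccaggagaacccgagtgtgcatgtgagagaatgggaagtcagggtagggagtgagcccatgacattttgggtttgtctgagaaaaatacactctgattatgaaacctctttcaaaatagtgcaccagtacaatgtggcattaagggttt
Tlr2 start: ctccgtgtGGGAATTCCCCaggtgtcc
The Tlr4 window held 1 PU.1 and 1 STAT6 match, the Tlr2 upstream window 1 NF-κB match, the Tlr8 window 1 PU.1 match and the Tlr7 window none, and the capitals at the Tlr2 start are 2 overlapping NF-κB matches. Of the windows of 100 bases to either side of the centre of all 81224 p300 regions, 24% held the PU.1 motif and 10.2% the STAT6 motif, against 16.8% and 7.92% of 101 member windows, and the NF-κB motif was in 13.2% of 51410 p65 windows and in 13.6% of 88 member windows. Both p65 sequences printed hold the NF-κB motif. Other p65 windows whose values are described later held no NF-κB match. These lay at 60.2, 46.3 and 31.9 kb from Tlr1, 15.6, 24.4 and 620.2 kb from Tlr4 and 3.3 kb from Tlr2. The windows 13.1 kb from Tlr8 and at the Tlr9 promoter also held none. A match is a run of letters and does not show that a factor binds there.

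The first comparison asked what IL-4 does to the receptor genes within 1 hr, read by the active histone mark. H3K27Ac moved in both directions over the set: it rose at Tlr4 and Tlr8 and fell at Tlr5, Tlr6, Tlr7 and Tlr9. All values here are the H3K27Ac signal summed over the peaks of a gene, changes are on the log2 scale with their standard error, and a gene was called at a limma p-value, adjusted over all genes by the Benjamini-Hochberg method, of at most 0.1. At Tlr4 the signal was 839 and 815 in the untreated samples and 1191 and 1261 after IL-4. This was a rise of 0.57 ± 0.060 (adjusted p = 0.0109), and the samples of the 2 groups did not overlap. Tlr8 held 408 and 366 untreated and 532 and 519 after IL-4, a rise of 0.45 ± 0.072 (adjusted p = 0.0233).

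The largest loss was at Tlr7, from 149 and 142 to 72.5 and 84.7, a change of -0.89 ± 0.10 (adjusted p = 0.0128). Tlr5 went from 158 and 151 to 100.1 and 105, a change of -0.59 ± 0.059 (adjusted p = 0.010). Both receptors thus had all IL-4 samples below all untreated samples, as did Tlr6 and Tlr9, where the losses were smaller. Tlr6 held 715 and 709 untreated and 631 and 577 after IL-4 (-0.23 ± 0.067, adjusted p = 0.0781), and Tlr9 828 and 808 against 734 and 676 (-0.21 ± 0.065, adjusted p = 0.0898). The Tlr6 call was lost without untreated replicate 1, untreated replicate 2 or IL-4 replicate 2 (adjusted p up to 0.225) and the Tlr9 call without any one of the 4 samples (up to 0.237), while the other 4 calls held without each sample. Tlr2 (428 and 410 against 437 and 315) varied more between the IL-4 samples than between groups. A peak of 128 located 0.4 kb into Tlr2 was listed in IL-4 replicate 1 only, and the called regions of Tlr2, given below, all fell. Tlr1, Tlr3 and Tlr13 also missed the threshold, with adjusted p of 0.666, 0.690 and 0.706. In all, 6 of 10 members were called, against 44.4% of the 13035 genes tested, and the median change was -0.12 over the members and -0.01 over all genes.

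**Figure D1:**
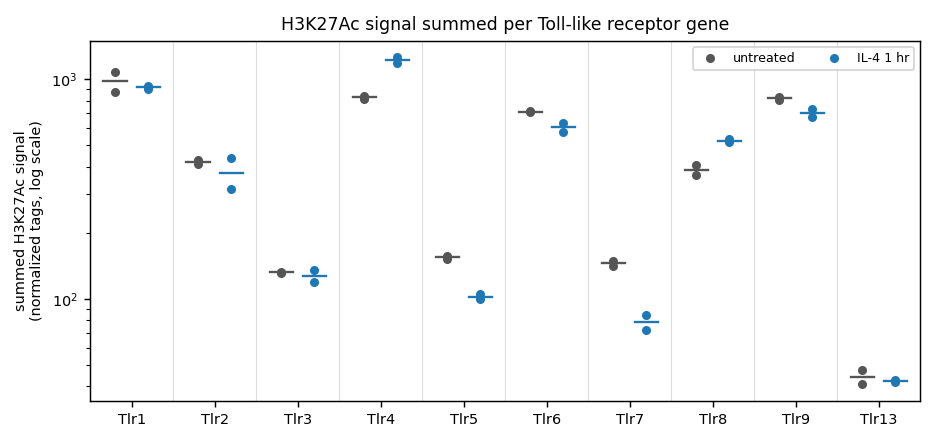
H3K27Ac signal summed over the peaks of each Toll-like receptor gene (y axis, log scale), without treatment and with 1 hr of IL-4; points are samples and lines the mean of the 2 samples. At Tlr4 and Tlr8 both IL-4 points lie above both untreated points, and at Tlr5, Tlr6, Tlr7 and Tlr9 below them.

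Regions showed where around each gene the mark moved. A region joined overlapping peaks of the compared samples and took the highest score in each sample, with samples lacking a peak set to the lowest score of the antibody, so where a group has no peak the adjusted p is given without a fold. The spread within such a group is then set rather than measured, and the adjusted p depends on it too. A region whose peaks all lie in 1 group entered the test only through that group. Its direction was then largely fixed in advance, and no conclusion is drawn from its adjusted p, here and below. Of 37 member regions tested, 16 were called at 7 genes, against 51.6% of all 28929 regions, and 7 rose and 9 fell. The gain at Tlr4 came from several places. Its start region (chr4:66827707-66828745), centred in an intron 0.4 kb into the gene, went from 524 and 513 to 632 and 686 (0.40 ± 0.070, adjusted p = 0.0228), and the region 15.6 kb downstream, where the RefSeq transcript ends, from 143 and 144 to 177 and 184 (0.38 ± 0.060, adjusted p = 0.0182). The call at the start was lost without either untreated sample (adjusted p up to 0.114) and the call at 15.6 kb without untreated replicate 1 (0.101).

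The region 23.8 kb downstream of the Tlr4 start (chr4:66851056-66852061) had no H3K27Ac peak in either untreated sample and signals of 255 and 252 after IL-4 (adjusted p = 8.63e-05). The region 29.3 kb downstream showed the reverse, with 70.0 and 62.2 untreated and no peak after IL-4 (adjusted p = 0.000447). Far regions also gained the mark, at 563.1 kb (no peak untreated, 32.1 and 29.5 after IL-4, adjusted p = 0.00108) and 620.2 kb (14.4 and 14.7 against 23.5 and 22.2, a rise of 0.70 ± 0.068, adjusted p = 0.00678). The change at 563.1 kb rests on the score given to missing peaks, and it turned to -0.189 with that score set 4 times as high.

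**Figure D2:**
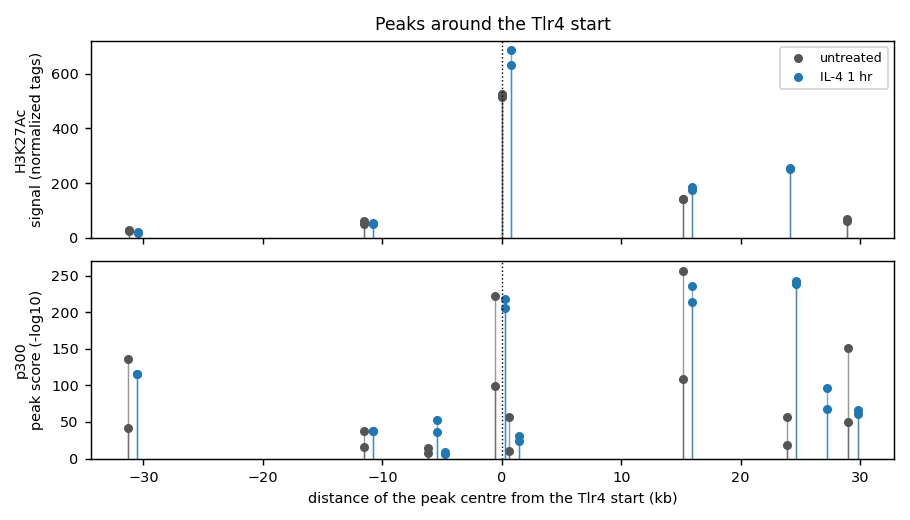
Peaks within 40 kb of the Tlr4 start: distance of the region centre from the start (x axis, kb, with untreated and IL-4 samples drawn slightly apart) against H3K27Ac signal (top) and p300 peak score (bottom); each point is a sample, and a sample without a peak has no point. The region near 24 kb has H3K27Ac points for IL-4 only, and the region near 29 kb for untreated cells only.

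Other antibodies were read over this Tlr4 region. p300, which adds the acetyl mark, scored 18.0 and 56.2 without treatment and 239 and 243 with IL-4 at 24.2 kb, on the −log10 scale of the peak caller MACS2. Both IL-4 samples were above both untreated samples. Without centring the rise was 2.92 and missed the threshold (adjusted p = 0.172). With centring it was 2.25 ± 0.28 (adjusted p = 0.0486). It was 2.19 (adjusted p = 0.0567) without untreated replicate 1, the library that stood apart, and the call was lost without either IL-4 sample (adjusted p up to 0.247). Beside it, at 26.9 kb, p300 had no peak untreated and scores of 96.8 and 67.6 after IL-4 (adjusted p = 0.0496). This call could not be fitted without either IL-4 sample. It held without each untreated sample, but both carried the lowest score, so that does not test it. PU.1 scored 8.00 and 5.64 untreated and 80.2 and 90.5 after IL-4 at 24.3 kb. This difference of 3.33 ± 0.46 did not pass (adjusted p = 0.214), as none of the 67996 PU.1 regions did (0%), although 8260 of them had an unadjusted p of at most 0.05. At 26.9 kb PU.1 had no peak untreated and 28.4 and 24.2 after IL-4 (adjusted p = 0.214). The samples labelled HDAC3, a deacetylase, cite the H3K27Ac antibody number, and in them there was no peak untreated and a score of 29.3 and 42.3 after IL-4 at 24.4 kb (adjusted p = 0.0924), a call lost without either untreated sample (adjusted p up to 0.217). HDAC2 scored 6.75 and 5.74 untreated and 18.8 and 10.04 after IL-4 there, and HDAC1 3.6 and 2.83 against 14.2 and 4.50; neither passed the test.

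**Figure D3:**
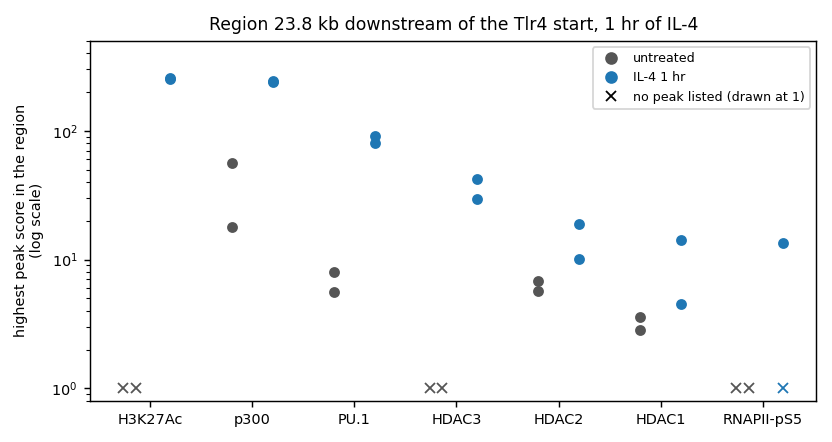
Highest peak score in the region 23.8 kb downstream of the Tlr4 start by antibody (H3K27Ac in HOMER signal, the others on the −log10 scale, log axis), with 1 point per sample and crosses, drawn at 1, for samples without a peak. For H3K27Ac, p300, PU.1, HDAC3, HDAC2 and HDAC1 every IL-4 point lies above every untreated point; RNAPII-pS5 had a peak in 1 of 2 IL-4 samples.

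Around the other members the mark moved at single regions. The Tlr8 promoter (chrX:167263212-167264286) rose from 246 and 235 to 349 and 344 (0.58 ± 0.062, adjusted p = 0.00824), and a region 13.4 kb upstream from 141 and 119 to 170 and 164 (0.42 ± 0.11, adjusted p = 0.0528). The second call was lost without untreated replicate 2 or either IL-4 sample (adjusted p up to 0.156). p300 scored 25.4 and 109 untreated and 169 and 170 after IL-4 at the same upstream place (adjusted p = 0.159), which missed the threshold.

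Most losses were at distal regions, which also included weak regions 34.0 and 43.7 kb upstream of Tlr2 and 32.0 kb upstream of Tlr5 with signals of at most 24.9. Upstream of Tlr2, the region at 21.4 kb (chr3:83862420-83863484) fell from 181 and 173 to 103 and 97.9 (-0.76 ± 0.068, adjusted p = 0.00580). Upstream of Tlr7, inside an intron of Prps2, a gene of nucleotide synthesis, the region at 23.4 kb (chrX:167353269-167354427) fell from 127 and 119 to 56.6 and 64.2 (-0.97 ± 0.090, adjusted p = 0.00620). The Tlr7 region held most of the signal of its gene. Downstream of Tlr1 a region at 9.5 kb fell from 214 and 229 to 161 and 153 (-0.44 ± 0.076, adjusted p = 0.0216), and upstream of Tlr5 a weak region at 9.8 kb went from 15 and 13.7 to no peak (adjusted p = 0.0105), a direction that turned with the score of missing peaks 4 times as high (1.4). An intronic region 0.5 kb into Tlr9 fell from 389 and 377 to 297 and 280 (-0.36 ± 0.069, adjusted p = 0.0280), a call lost without either untreated sample or IL-4 replicate 2 (adjusted p up to 0.122).

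No member passed the gene-level test for any other antibody after 1 hr of IL-4 in limma. For p300, 0 of 10 members were called against 7.05% of 15708 genes, and 2 (Tlr7 and Tlr8) had an unadjusted p of at most 0.05. The summed p300 score of Tlr4 was 384 and 1056 untreated and 1449 and 1413 after IL-4, and that of Tlr8 60.5 and 220 against 349 and 367, so that untreated replicate 1 was the lowest in both. By region, 9 of 86 p300 member regions were called (10.5% of all regions), 6 higher and 3 lower, at Tlr1, Tlr4, Tlr7 and Tlr13, and without centring 3, all higher. Those 3 lay 26.9, 72.4 and 84.4 kb downstream of the Tlr4 start, and none had a peak in untreated cells. Of the 6 rises 5 were at Tlr4, where farther downstream p300 had no peak untreated and scored 34.8 and 32.8 after IL-4 at 84.4 kb (adjusted p = 0.0605) and 29.5 and 19.7 at 72.4 kb (adjusted p = 0.0776). At 563.0 kb, beside the H3K27Ac region at 563.1 kb, it had no peak and 14.8 untreated and 103 and 124 after IL-4 (adjusted p = 0.0678), a call lost without either IL-4 sample (adjusted p up to 0.277). In an intron 0.3 kb into Tlr1 a weak p300 peak went from 2.86 and 10.3 to 58.3 and 73.7 (2.92 ± 0.30, adjusted p = 0.0472). The p300 region at the Tlr1 promoter itself scored 3.52 and 18.2 untreated and 17 and 7.59 after IL-4 (-0.16 ± 0.56, adjusted p = 0.873), and its groups overlapped. At the Tlr7 region 23.3 kb upstream p300 went from 40.1 and 130 to 42.5 and 47.8 (-1.35 ± 0.28, adjusted p = 0.0886); the untreated scores lay on both sides of the IL-4 scores. In an intron of Tlr13, 5.1 kb downstream of the start, it went from 21.3 and 87.3 to 22.6 and 21.3 (-1.65 ± 0.31, adjusted p = 0.0751). The calls in the Tlr1 intron, at the Tlr7 region and in Tlr13 were each lost without either IL-4 sample (adjusted p up to 0.226, 0.402 and 0.332), and without untreated replicate 1, the library that stood apart, the changes were 2.75, -1.44 and -1.91 (adjusted p of 0.0556, 0.0962 and 0.0669).

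PU.1, HDAC1 and HDAC2 were called at 0 of 10 members and HDAC3 at 0 of 9, with 0% of all genes called in each of the 4. At an unadjusted p of at most 0.05 these antibodies gave 0, 0, 0 and 1 member (Tlr6 for HDAC3, with no peak untreated and 4.14 and 6.39 after IL-4). HDAC1 scores summed over Tlr2 were 69.6 and 51.6 untreated and 24.9 and 28.4 after IL-4 (-0.71 ± 0.35, adjusted p = 0.693). The IL-4 lists of HDAC1 were also shorter, with 23270 and 22340 peaks against 30511 and 26836, and the part of this in the result was not tested. By region, 0 of 115 PU.1 member regions were called, 15 having an unadjusted p of at most 0.05, and 1 of 25 HDAC3 regions, the Tlr4 region above, against 7.4% of all HDAC3 regions.

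RNA polymerase II gave few calls at 1 hr. For RNAPII-pS5, 0 of 10 members passed (2.6% of genes), and Tlr2 and Tlr7 had an unadjusted p of at most 0.05. The summed RNAPII-pS5 score of Tlr2 was 121 and 92.3 untreated and 65.1 and 56.1 after IL-4 (-0.76 ± 0.16, adjusted p = 0.178), and that of Tlr7 76.0 and 53.2 against 40.5 and 40.1 (-0.61 ± 0.14, adjusted p = 0.210). Both IL-4 samples were below both untreated samples in these genes. At the region 21.4 kb upstream of Tlr2, where H3K27Ac fell, RNAPII-pS5 scored 33.3 and 31.8 untreated and 13.9 and 15.8 after IL-4 (-1.02 ± 0.29, adjusted p = 0.168). Of 48 RNAPII-pS5 member regions 2 were called (10.7% of all): 9.2 kb downstream of Tlr1 (22.2 and 14.5 against 7.36 and 6.55, -1.26 ± 0.23, adjusted p = 0.0657) and inside Tlr8 (no peak untreated, 5.87 and 4.59 after IL-4, adjusted p = 0.0505), where the sign turned with the score of missing peaks 4 times as high (-0.0375). The Tlr1 call was lost without any one of the 4 samples (adjusted p up to 0.398) and the Tlr8 call without either untreated sample (up to 0.277).

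For RNAPII-pS2, 0 of 8 members with a peak passed (4.87% of genes) and 2 had an unadjusted p of at most 0.05, while Tlr3 and Tlr5 had no peak in any of the 4 libraries. Tlr2 scored 7.80 and 3.81 in the libraries labelled untreated and 32.7 and 20.9 in those labelled IL-4, and Tlr13 14.5 and 24.0 against 31.8 and 39.3. Of 27 regions 7 were called (13.7% of all), 5 higher and 2 lower in the libraries labelled IL-4. They included the end of Tlr2, 7.3 kb downstream (no peak against 7.90 and 11.1), an intronic region 0.3 kb into Tlr13 (no peak against 7.89 and 7.61) and the Tlr8 upstream region at 13.1 kb (12.0 and 11.1 against no peak), each with an adjusted p of 0.0557. Each of the 3 calls was lost without either sample that lacked the peak (adjusted p up to 0.362 for Tlr2 and Tlr13 and 0.278 for Tlr8).

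The second experiment asked how LPS and IL-4 pretreatment change NF-κB binding at the receptors. With LPS, p65 scores rose over most genes, and called members lay on both sides of this general rise. Without centring the samples, summed p65 scores rose with LPS at 7 members, namely Tlr1, Tlr2, Tlr4, Tlr6, Tlr7, Tlr8 and Tlr13, and fell at none, against 56.7% of all 12312 genes called. The shared peaks themselves scored higher with LPS, and the median change of all genes was 1.6 without centring and -0.04 with it. The centred fit, the one used throughout, thus reads each gene against that shift. In it 7 members were called (36.8% of genes), with Tlr4, Tlr6 and Tlr8 above the shift and Tlr2, Tlr3, Tlr5 and Tlr9 below it. Without centring Tlr2, Tlr5 and Tlr9 turned to positive changes, and Tlr6 turned to -0.554 with the score of missing peaks 4 times as high and to -0.0219 with only the upper 50% of peaks. Over all genes, 65.5% of the calls were rises with centring and 97.5% without.

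Tlr4, the LPS receptor, scored 7.07 and 10.97 in ctrl/ctrl, 32.1 and 30.5 in IL-4 PT/ctrl, 94.3 and 95.2 in ctrl/LPS and 182 and 180 in IL-4 PT/LPS. The 4 groups did not overlap, in that order. With LPS the centred rise was 1.79 ± 0.27 (adjusted p = 0.00548) and the uncentred rise 3.43. With IL-4 for 24 hr alone it was 1.97 ± 0.27 (adjusted p = 0.0152), and both calls held without each sample. IL-4 PT/LPS exceeded ctrl/LPS by 0.94 without centring (adjusted p = 0.0644) and by 0.43 ± 0.27 with it (adjusted p = 0.394).

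Tlr2 scored 185 and 217, 115 and 125, 289 and 308, and 328 and 358 in the same order of groups. Its LPS response was -1.06 ± 0.22 relative to the shared genes (adjusted p = 0.0156) and 0.57 uncentred (adjusted p = 0.0662), and the call held without each sample. Tlr1, the partner of Tlr2, scored 50.7 and 55.7, 48.6 and 28.3, 164 and 157, and 241 and 224, a rise of 1.59 uncentred (adjusted p = 0.00706) and a change of -0.05 centred (adjusted p = 0.919). Tlr6, the other partner, had no p65 peak in ctrl/ctrl, 1 sample of 2 in IL-4 PT/ctrl (3.44), 12.4 and 10 in ctrl/LPS and 17.9 and 29.2 in IL-4 PT/LPS. For Tlr6 the LPS call, whose direction depends on the score of missing peaks as given above, had an adjusted p of 0.0628 and was lost without any ctrl/ctrl or ctrl/LPS sample or IL-4 PT/LPS replicate 1 (adjusted p up to 0.201).

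Tlr5 scored 26.8 and 43.8, 39.2 and 23.6, 40.3 and 55.6, and 66.0 and 58.5, with a change of -1.17 ± 0.37 centred (adjusted p = 0.0553) and 0.47 uncentred (adjusted p = 0.371). The centred call was lost without ctrl/ctrl replicate 2, ctrl/LPS replicate 1 or either IL-4 PT/LPS sample (adjusted p up to 0.185).

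Among the endosomal receptors, Tlr8 scored 3.10 and no peak, 8.38 and 13.6, 26.6 and 12.4, and 38.8 and 49.7. Its rise was 1.54 ± 0.60 with LPS (adjusted p = 0.0981) and 2.55 ± 0.60 with 24 hr of IL-4 (adjusted p = 0.0748). The first call was lost without ctrl/ctrl replicate 2, ctrl/LPS replicate 1 or any IL-4 sample (adjusted p up to 0.374) and the second without ctrl/ctrl replicate 2 or any IL-4 sample (up to 0.211). Tlr9 scored 52.4 and 72.3, 35.7 and 18.6, 97.7 and 86.8, and 84.8 and 70.0, with a centred change of -1.06 ± 0.37 (adjusted p = 0.0733) and an uncentred one of 0.58 (adjusted p = 0.266). The Tlr9 call was lost without any ctrl/ctrl, ctrl/LPS or IL-4 PT/LPS sample (adjusted p up to 0.222). Tlr3, the receptor for double-stranded RNA, had weak p65 peaks only: 3.99 and 3.38 in ctrl/ctrl, none in IL-4 PT/ctrl, 2.89 in 1 ctrl/LPS sample, and 4.02 and 4.82 in IL-4 PT/LPS (LPS response adjusted p = 0.00591 centred, 0.115 uncentred). Tlr7 scored 2.78 and 5.66, 4.26 and no peak, 23.5 and 36.8, and 21.9 and 25.6, and Tlr13 9.59 and 8.80, 6.39 and 4.95, 34.6 and 25.2, and 45.7 and 70.6. Both missed the centred threshold for LPS (adjusted p = 0.168 and 0.922).

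**Figure D4:**
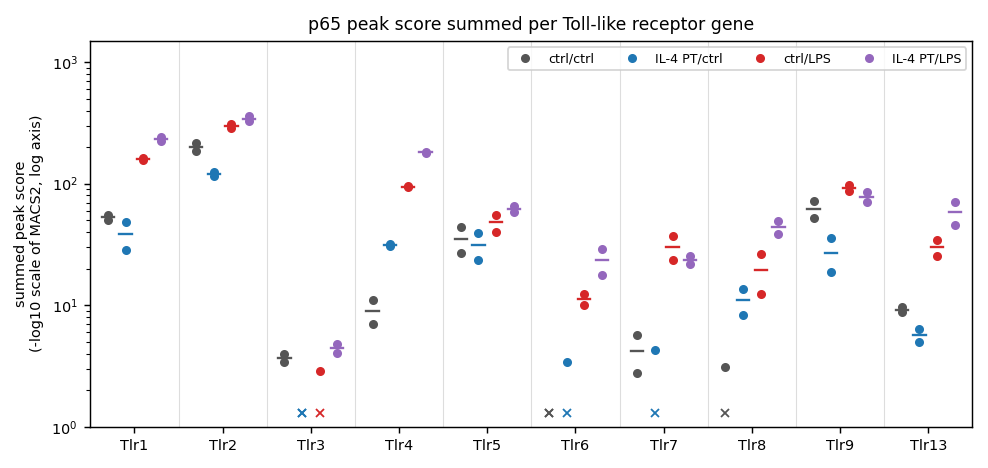
Uncentred p65 peak score summed over the peaks of each Toll-like receptor gene (y axis, log scale) in the 4 groups of the LPS experiment; points are samples, lines the mean where both samples have a peak, and crosses, at the lowest p65 score, samples without a peak. Tlr4 rises from about 10 in ctrl/ctrl to about 180 in IL-4 PT/LPS, with no overlap between groups.

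Over the other p65 comparisons, 24 hr of IL-4 alone gave 2 called members, both higher (8.72% of genes), namely Tlr4 and Tlr8. IL-4 pretreatment under LPS gave 0 of 10 in limma (17.8% of genes), with 0 at an unadjusted p of at most 0.05 and 1, Tlr4, without centring. The LPS response after IL-4 gave 3 (36.8%): Tlr13 rose by 1.05 ± 0.31 (adjusted p = 0.0537), and Tlr2 and Tlr5 changed by -0.77 ± 0.22 and -1.26 ± 0.37 (adjusted p = 0.0501 and 0.0529). Without centring all 10 members rose in this comparison (77.1% of genes), Tlr2 by 1.52 and Tlr5 by 1.03 included, while the median gene rose by 2.47. Each of the 3 calls was lost without some sample: Tlr13 and Tlr2 without IL-4 PT/ctrl replicate 2 or IL-4 PT/LPS replicate 2, Tlr2 also without IL-4 PT/LPS replicate 1, and Tlr5 without IL-4 PT/ctrl replicate 1 or either IL-4 PT/LPS sample (adjusted p up to 0.226, 0.175 and 0.200). The LPS responses with and without IL-4 differed at 2 members, Tlr3 and Tlr4 (12.5% of genes), and without centring at Tlr3 and Tlr13.

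By region, 25 of 73 p65 member regions were called with LPS (37.6% of all), 6 with 24 hr of IL-4 (5.39%) and 27 between IL-4 PT/LPS and ctrl/LPS (37.4%). The IL-4 PT/LPS lists were the longest, and the part of this in the regions found or higher in that group was not tested. The Tlr4 region at 24.4 kb, where H3K27Ac and p300 rose after 1 hr of IL-4, had no p65 peak in ctrl/ctrl, 15.7 and 8.30 in IL-4 PT/ctrl, 15.7 and 10.8 in ctrl/LPS and 25.3 and 33.8 in IL-4 PT/LPS. It was called for 24 hr of IL-4 alone (adjusted p = 0.00835) and for LPS (adjusted p = 0.00628). The region at 15.6 kb had no peak in ctrl/ctrl, 6.23 and 9.07 in IL-4 PT/ctrl, 22.6 and 20.9 in ctrl/LPS and 20.6 and 15.9 in IL-4 PT/LPS (adjusted p of 0.00836 for IL-4 and 0.00115 for LPS). All 4 of these calls held without each sample. Far downstream of Tlr4, p65 was present with LPS only at 620.2 kb (25.5 and 18.6 in ctrl/LPS, 22.2 and 28.3 in IL-4 PT/LPS, LPS response adjusted p = 0.000590). At 564.9 kb it was instead present with IL-4 only, at 10.1 and 10.4 in IL-4 PT/ctrl and 10.8 and 9.40 in IL-4 PT/LPS, and was called for 24 hr of IL-4 (adjusted p = 0.00405) and for pretreatment under LPS (adjusted p = 0.000371). These calls held without each sample too. The 24.4 kb region thus carried p65 in the IL-4 samples without LPS, while the Tlr4 promoter scored 7.07 and 5.67 in ctrl/ctrl, no peak and 2.70 in IL-4 PT/ctrl, and 13.8 and 12.1 in ctrl/LPS.

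Around Tlr1, p65 peaked at some regions in samples with LPS only. At 60.2 kb downstream it had no peak without LPS and scored 31.4 and 20.4 in ctrl/LPS and 60.9 and 68.2 in IL-4 PT/LPS (LPS response adjusted p = 0.000619), and at 46.3 kb 31.2 and 23.7 in ctrl/LPS and 32.9 and 28.7 in IL-4 PT/LPS (adjusted p = 0.000412). The first was higher with IL-4 pretreatment by 1.08 ± 0.25 (adjusted p = 0.0234), a call lost without either IL-4 PT/LPS sample (adjusted p up to 0.173). At 31.9 kb it scored 3.46 in 1 sample of IL-4 PT/ctrl, had no peak in ctrl/ctrl, and reached 19.5 and 25.3 in ctrl/LPS and 17.4 and 15.4 in IL-4 PT/LPS (LPS response adjusted p = 0.00499). At 61.0 kb p65 had a peak in IL-4 PT/LPS only (15.8 and 15.1, adjusted p = 0.000308), a call that rests on 2 samples and could not be fitted without either. The Tlr1 region at 9.7 kb went the other way, with 30.2 and 33.9 in ctrl/ctrl, 21.9 and 16.5 in IL-4 PT/ctrl, 13.7 and 18.7 in ctrl/LPS and 6.67 and 4.41 in IL-4 PT/LPS, and fell with LPS by 1.00 uncentred (centred -2.05 ± 0.31, adjusted p = 0.00562) and with pretreatment under LPS (-1.83 ± 0.31, adjusted p = 0.00687).

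In the region at the Tlr2 start, which holds the stretch printed above, p65 scored 46.0 and 45.7 in ctrl/ctrl, 22.7 and 18.0 in IL-4 PT/ctrl, 47.8 and 48.1 in ctrl/LPS and 41.6 and 53.7 in IL-4 PT/LPS. With 24 hr of IL-4 it changed by -0.99 ± 0.20 (adjusted p = 0.0654), a call lost without any ctrl/ctrl or IL-4 PT/ctrl sample or IL-4 PT/LPS replicate 1 (adjusted p up to 0.228). With LPS it changed by -0.98 ± 0.20 relative to shared peaks (adjusted p = 0.0111) and by 0.06 uncentred. At 21.4 kb upstream, where H3K27Ac fell with 1 hr of IL-4, p65 scored 82.6 and 96.8, 62.0 and 67.3, 137 and 138, and 121 and 125 in the 4 groups. That LPS response was 0.62 uncentred and -0.42 ± 0.19 centred (adjusted p = 0.118). At 3.3 kb upstream p65 was present with LPS only, at 12.3 and 20.3 in ctrl/LPS and 24.8 and 31.6 in IL-4 PT/LPS (adjusted p = 0.00186). At 60.3 kb upstream, in an intron of another gene, it was present in IL-4 PT/LPS only (15.9 and 9.18, adjusted p = 0.00113 for pretreatment under LPS). Between Tlr8 and Tlr7, 28.2 kb downstream of the Tlr7 start, it was present in ctrl/LPS only (5.73 and 10.7, adjusted p = 0.00137). The calls at 60.3 and 28.2 kb rest on 2 samples and could not be fitted without either.

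The Tlr8 region at 13.1 kb upstream had 3.10 and no peak in ctrl/ctrl, 8.38 and 13.6 in IL-4 PT/ctrl, 13.5 and 12.4 in ctrl/LPS and 30.2 and 29.1 in IL-4 PT/LPS. It was called for IL-4 (2.60 ± 0.48, adjusted p = 0.04997) and for LPS (1.64 ± 0.48, adjusted p = 0.0372). The IL-4 call was lost without ctrl/ctrl replicate 2, IL-4 PT/ctrl replicate 2 or either ctrl/LPS sample (adjusted p up to 0.157), and the LPS call without ctrl/ctrl replicate 2 or ctrl/LPS replicate 1 (up to 0.140). At the Tlr9 promoter p65 scored 14.9 and 18.6 in ctrl/ctrl, 5.27 and no peak in IL-4 PT/ctrl, 61.5 and 58.8 in ctrl/LPS and 48.1 and 39.9 in IL-4 PT/LPS, a rise of 1.85 uncentred that missed the centred threshold (0.81 ± 0.61, adjusted p = 0.339). An intronic Tlr9 region at 0.6 kb had p65 in ctrl/ctrl only (9.96 and 11.5, adjusted p = 0.000298 for LPS). Promoter peaks of p65 at Tlr13 (8.54 and 4.55) and a region 3.3 kb upstream of Tlr5 (10.2 and 5.19) were present in ctrl/LPS only, and both were called for IL-4 pretreatment under LPS (adjusted p = 0.00230 and 0.00199). The calls in the Tlr9 intron, at the Tlr13 promoter and upstream of Tlr5 rest on 2 samples each and could not be fitted without either.

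RNA polymerase II in the same experiment followed another pattern. The LPS response of RNAPII-pS5 was called at 2 members, both lower (35.1% of genes), Tlr8 and Tlr13. Tlr13, the sensor of bacterial ribosomal RNA, scored 25.3 and 19.8 in ctrl/ctrl, 18.2 and 28.0 in IL-4 PT/ctrl, 3.05 and 5.85 in ctrl/LPS and 7.30 and 5.97 in IL-4 PT/LPS. It fell by 2.08 on the log2 scale (SE 0.40, adjusted p = 0.0135), held without each sample, and all samples with LPS were below all samples without. With only the upper 50% of peaks by score the Tlr13 change turned to 0.117. Tlr8 scored 14.04 and 11.04 in ctrl/ctrl, 30.1 and 30.04 in IL-4 PT/ctrl, no peak and 3.87 in ctrl/LPS and 16.3 and 29.9 in IL-4 PT/LPS. Its LPS change was -2.07 ± 0.52 (adjusted p = 0.0324), lost without either ctrl/ctrl sample or ctrl/LPS replicate 1 (adjusted p up to 0.127). Without centring Tlr6 and Tlr9 were called lower as well, and 21.9% of all calls were rises against 32.7% with it. The RNAPII-pS5 lists with LPS were also shorter than those without, as given above, and the part of this in these losses was not tested.

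With 24 hr of IL-4 alone 0 of 10 members were called for RNAPII-pS5 in limma (13.3% of genes), and 2, Tlr2 and Tlr5, had an unadjusted p of at most 0.05. Under LPS, IL-4 pretreatment moved 2 members (17.2% of genes) in opposite directions. Tlr5, the flagellin receptor, scored 34.4 and 16.8 in ctrl/ctrl, 9.54 and 9.14 in IL-4 PT/ctrl, 25.0 and 8.42 in ctrl/LPS, and had no RNAPII-pS5 peak in IL-4 PT/LPS (adjusted p = 0.0170). Tlr8 was higher with pretreatment by 2.94 ± 0.52 with the missing peak at the lowest score (adjusted p = 0.0216), and this call held without each sample. The Tlr5 call held too, but both its IL-4 PT/LPS samples carried the lowest score, so leaving out either does not test it. After IL-4, the LPS response was called lower at 3 members (28.3% of genes): Tlr4 (45.9 and 45.3 to 9.14 and 22.7, -1.55 ± 0.50, adjusted p = 0.0784), Tlr13 (-1.66 ± 0.40, adjusted p = 0.0331) and Tlr5 (9.54 and 9.14 to no peak, adjusted p = 0.0275). The Tlr5 change turned to 0.0167 with peaks not annotated as intergenic only and to 0.0327 with the upper 50% of peaks. The Tlr4 call was lost without any ctrl/ctrl or IL-4 PT/ctrl sample or IL-4 PT/LPS replicate 1 (adjusted p up to 0.266), the Tlr5 call without any IL-4 PT/ctrl or IL-4 PT/LPS sample (up to 0.113) and the Tlr13 call without replicate 2 of either (up to 0.142). The difference of the LPS responses was called at 0 members (11.8% of genes), with 1, Tlr5, at an unadjusted p of at most 0.05.

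RNAPII-pS2, the elongating form, was called at 0 of 10 members with LPS (36.4% of genes), with 24 hr of IL-4 (21.8%), for the LPS response after IL-4 (29.4%) and for the difference of responses (11.3%), with 0, 2, 0 and 0 members at an unadjusted p of at most 0.05. IL-4 pretreatment under LPS gave 1 call (14% of genes): Tlr5 scored 68.1 and 66.4 in ctrl/ctrl, 33.5 and 37.1 in IL-4 PT/ctrl, 76.7 and 49.9 in ctrl/LPS and 23.7 and 32.9 in IL-4 PT/LPS (-1.19 ± 0.29, adjusted p = 0.0651). All samples with IL-4 were below all samples without. The call was lost without ctrl/ctrl replicate 1, ctrl/LPS replicate 1 or either IL-4 PT/LPS sample (adjusted p up to 0.235). Tlr4 scored 94.8 and 99.6, 72.1 and 79.8, 172 and 125, and 135 and 125 in the 4 groups, so its LPS samples were above its samples without LPS, but the change missed the threshold (0.37 ± 0.23, adjusted p = 0.289). Without centring Tlr1 was called higher with LPS (0.76, adjusted p = 0.0575), and Tlr1, Tlr2 and Tlr4 were called higher with LPS after IL-4, where 65.1% of all calls were rises against 47.5% with centring.

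**Figure D5:**
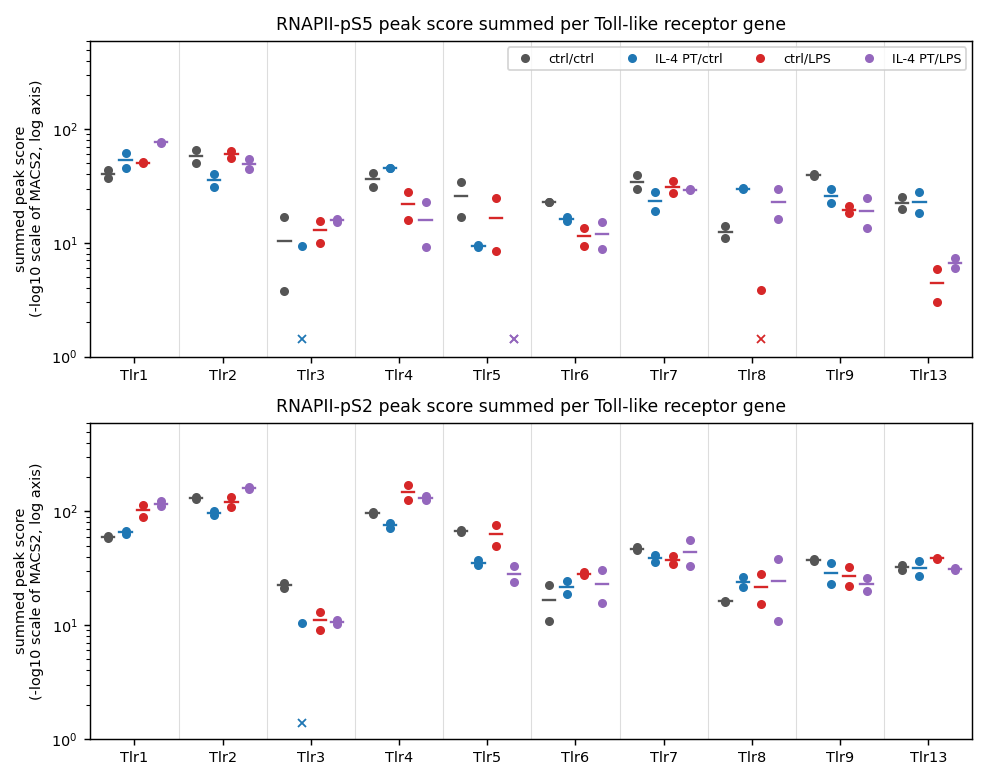
Uncentred RNAPII-pS5 (top) and RNAPII-pS2 (bottom) peak scores summed over the peaks of each Toll-like receptor gene (y axes, log scale) in the 4 groups of the LPS experiment; points are samples, lines the mean where both samples have a peak, and crosses, at the lowest score of the antibody, samples without a peak. RNAPII-pS5 at Tlr13 is lower in all 4 samples with LPS than in all 4 without, and RNAPII-pS2 at Tlr5 is lower in all 4 samples with IL-4.

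Among RNAPII-pS5 member regions 16 of 44 were called with LPS (36.6% of all), 8 with 24 hr of IL-4 (21.1%) and 7 with pretreatment under LPS (18.7%). The Tlr6 promoter scored 14.7 and 17.4 in ctrl/ctrl and 5.98 and 7.43 in ctrl/LPS (-1.08 ± 0.32, adjusted p = 0.0538). It scored 11.4 and 12.4 in IL-4 PT/ctrl and 8.91 and 15.2 in IL-4 PT/LPS. At the Tlr13 start the peak was present without LPS (4.42 and 4.45 in ctrl/ctrl, 5.96 and 7.45 in IL-4 PT/ctrl) and absent from all 4 samples with LPS (adjusted p = 0.00490), a change that turned to 0.557 with the lowest score set 4 times as high. The Tlr5 promoter peak (6.15 and 11.5) was found in ctrl/ctrl only and was called lower with LPS (adjusted p = 0.00443) and with IL-4 (adjusted p = 0.00509). A region 3.1 kb upstream of Tlr5 had a peak in ctrl/LPS only (7.22 and 8.42), where p65 was also found at 3.3 kb, and was called for LPS (adjusted p = 0.00108) and for pretreatment under LPS (adjusted p = 0.00296). The Tlr8 upstream region at 13.2 kb had no RNAPII-pS5 peak in ctrl/ctrl, 16.8 and 11.3 in IL-4 PT/ctrl, no peak and 3.87 in ctrl/LPS and 7.79 and 12.5 in IL-4 PT/LPS (24 hr IL-4 adjusted p = 0.00912). At Tlr1 the region 59.9 kb downstream had RNAPII-pS5 with LPS only, 5.65 and 6.85 in ctrl/LPS and 12.6 and 20.1 in IL-4 PT/LPS (LPS adjusted p = 0.00274). Its region at 31.9 kb had no peak in ctrl/ctrl, 5.32 and 5.75 in IL-4 PT/ctrl, 11.6 and 9.59 in ctrl/LPS and 5.81 and 7.09 in IL-4 PT/LPS, and was called for LPS (adjusted p = 0.00108) and for 24 hr of IL-4 (adjusted p = 0.00413), the latter with a sign that turned with the lowest score 4 times as high (-0.0746). In an intron 1.0 kb into Tlr3 RNAPII-pS5 was found with LPS only, at 5.65 and 8.92 in ctrl/LPS and 4.01 in 1 sample of IL-4 PT/LPS (adjusted p = 0.0145). The calls at Tlr13, Tlr8, Tlr1 and Tlr3 held without each sample. Those at Tlr5 rest on 2 samples with a peak and could not be fitted without either. They held without each of the other 6, but these all carried the lowest score, so that does not test them.

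For RNAPII-pS2, 25 of 59 member regions were called with LPS (39.9% of all), 17 with 24 hr of IL-4 (27.3%) and 13 with pretreatment under LPS (22.2%). The Tlr4 region at 24.4 kb again had no peak in ctrl/ctrl and scored 12.3 and 12.5 in IL-4 PT/ctrl, 13.8 and 11.6 in ctrl/LPS and 15.1 and 19.2 in IL-4 PT/LPS (adjusted p of 0.00107 for IL-4 and 0.000544 for LPS). The Tlr4 promoter went the other way, with 41.3 and 44.6 in ctrl/ctrl, 15.99 and 18.8 in IL-4 PT/ctrl, 23.4 and 28.7 in ctrl/LPS and 19.4 and 16.8 in IL-4 PT/LPS, and fell with IL-4 (-1.26 ± 0.24, adjusted p = 0.0145), a sign that turned when only the central 200 bp of peaks were joined (1.23). At Tlr1 the region 60.0 kb downstream had RNAPII-pS2 with LPS only, 16.5 and 16.4 in ctrl/LPS and 32.0 and 28.8 in IL-4 PT/LPS (adjusted p = 0.000443). Upstream of Tlr5 the region at 19.2 kb scored 12.7 and 11.1 in ctrl/ctrl and 9.65 and 4.2 in ctrl/LPS, and had no peak in any sample with IL-4 (adjusted p of 0.00312 for IL-4 and 0.0134 for pretreatment under LPS). The region 4.7 kb upstream of Tlr3 scored 18.1 and 15.1 in ctrl/ctrl, no peak and 4.14 in IL-4 PT/ctrl and 7.70 and 5.26 in ctrl/LPS, with no peak in IL-4 PT/LPS (24 hr IL-4 adjusted p = 0.0102). Around Tlr2 the region 29.4 kb downstream had RNAPII-pS2 in ctrl/ctrl only (12.3 and 10.5, adjusted p = 0.000454 for LPS and 0.00102 for IL-4), while that at 19.5 kb had it in samples with IL-4 only, at 10.7 and 11.4 in IL-4 PT/ctrl and 8.08 and 9.07 in IL-4 PT/LPS (adjusted p = 0.00101 for IL-4 and 0.00104 for pretreatment under LPS). At 66.9 kb downstream of Tlr4 it had no peak in ctrl/ctrl, 8.65 and 11.4 in IL-4 PT/ctrl, 23.6 and 16.5 in ctrl/LPS and 6.61 in 1 sample of IL-4 PT/LPS (LPS adjusted p = 0.00938). These calls too held without each sample, except that the region at 29.4 kb rests on 2 samples and could not be fitted without either.

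A list of 36 genes that work with the receptors (co-receptors, chaperones, adaptors, kinases, NF-κB and interferon regulatory factors) was read beside them. H3K27Ac was called at 17 of 31 with a peak after 1 hr of IL-4, 3 higher and 14 lower, with a median of -0.17, where 44.4% of all genes were called, 2611 higher and 3183 lower, with a median of -0.01. The LPS co-receptor Cd14 changed by -0.29 ± 0.057 (adjusted p = 0.0362), while the interferon regulator Irf7 rose by 1.26 ± 0.049 (adjusted p = 0.00207). For p65, 14 of 29 were called with LPS, 10 above and 4 below the shift of shared genes, against 36.8% of all genes. Without centring 24 rose and 0 fell, where 56.7% of all genes were called and 97.5% of those calls were rises. Cd14 rose by 0.97 ± 0.23 (adjusted p = 0.0246) and by 2.61 uncentred. The adaptors Myd88 and Ticam2 had no p65 peak in ctrl/ctrl and were called higher with LPS (adjusted p = 0.00185 and 0.00124). RNAPII-pS5 was called at 12 of 33 with LPS, a share near the 35.1% of all genes, with 7 higher and 5 lower, and without centring 3 higher and 9 lower. The inhibitor Tnfaip3 rose by 1.32 ± 0.27 (adjusted p = 0.0173), and Unc93b1, which carries the endosomal receptors to their compartment, changed by -1.71 ± 0.38 (adjusted p = 0.0222), both with the same sign uncentred.

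The pattern of RNAPII-pS5 over the 8 samples of the LPS experiment was compared with that of the 5015 genes with a peak in all 8. Pearson's r to the closest gene was 0.99 for Tlr1 (Dnajb2), 0.98 for Tlr2 (Fpr2, a formyl peptide receptor), 0.97 for Tlr4 (E330017L17Rik), 0.96 for Tlr6 (Tmem167b), 0.97 for Tlr7 (Itgb5), 0.95 for Tlr9 (S100z) and 0.99 for Tlr13 (Nxnl2). The next were Ripk2 and Amz2 for Tlr1, Mx1 and Trim30b for Tlr2, Mllt4 and Tfeb for Tlr4, Hnrpdl and Rcsd1 for Tlr6, Papd7 and Nme8 for Tlr7, Ptpn6 and Lnpep for Tlr9, and Foxred2 and Obfc1 for Tlr13. Tlr3, Tlr5 and Tlr8 lacked a peak in at least 1 sample and were not compared. These values describe the same 8 libraries, of 4 groups with shared treatments, and carry no test.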

How the data were processed

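ChIP-seq peak lists of 56 mouse BMDM samples, 28 groups of 2, were used as deposited. Per the submitters' processing notes, reads were handled with BWA 0.7.10, SAMtools 0.1.19, MACS2 2.0.10 and HOMER 4.2 on mm10. The peak score the authors deposited is on the −log10 scale of MACS2, except for H3K27Ac, where the authors deposited a HOMER signal per region. No reads were used, so depth is unknown, and a missing peak means only that none passed the peak caller.

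For each gene, scores of its peaks were summed per sample, missing values were set to the lowest score of the antibody, log2 values were centred on the median of genes with a peak in every sample, and those genes that had peaks in 2 or more samples were fitted with limma 3.58.1 (R 4.3.3), 1 fit per antibody and experiment, with Benjamini-Hochberg adjustment over all genes. Calls needed an adjusted p of at most 0.1 and a peak in the samples compared; the second condition was added after the data were seen. Overlapping peaks (at least 1 bp) were joined to regions and tested likewise. The distances given are those of region centres from the annotated start. Other steps used Python 3.11.15, pandas 2.3.3 and NumPy 2.4.6, and the fit was tested on simulated data. The labels do not say whether the 2 replicates came from separate cultures or animals. The paper calls its ChIP-seq replicates biological and independent, without saying which of these they were. The p-values thus measure at most the spread between these samples, and an exact permutation test of 2 against 2 cannot go below 0.333. Where a group lacks a peak, its samples share the lowest score before centring. Its spread is then imposed, and a small p-value there partly reflects that setting. Members and lists were chosen with earlier results of these data known. All members are named, with the 3 genes closest to each member compared by Pearson's r. Promoter regions and called regions are given as a selection made with their values known. Other called regions, promoters included, are not listed. Same-numbered replicates did not deviate together (correlations -0.0272 to 0.066), so no pairing was used. Alternatives were another floor, no centring, the highest peak, non-intergenic peaks, the upper 50% of peaks, other filters and thresholds, a replicate block and leaving out each sample.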

Additional observations from a re-analysis of the deposited data

Results flagged for a closer look

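The LPS responses of p65 with and without IL-4 pretreatment differed at 2 members by the interaction test of limma, given here as the response after IL-4 minus the response without, on the log2 scale. At Tlr4 the summed score differed by -1.54 ± 0.38 (adjusted p = 0.0748), and without centring by -0.89 (adjusted p = 0.191). The call was lost without 7 of the 8 samples, all but ctrl/ctrl replicate 2 (adjusted p up to 0.285). At Tlr3, where peaks were weak and 3 of 8 samples had none, it differed by 2.02 ± 0.56 with missing peaks at the lowest score (adjusted p = 0.0985) and by -0.985 with that score 4 times as high. It was a call lost without any ctrl/ctrl, IL-4 PT/ctrl or IL-4 PT/LPS sample (adjusted p up to 0.321).

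Regions of Tlr4 differed in both directions. The values below use the lowest p65 score for missing peaks and depend on it. The regions at 15.6 kb and 24.4 kb, which had p65 in IL-4 PT/ctrl already, differed by -3.25 (adjusted p = 0.00451) and -2.42 (adjusted p = 0.0207). Some regions had a peak in IL-4 PT/LPS only. These were the regions at 2.9 kb (6.82 and 7.70, difference 2.00, adjusted p = 0.00391) and 612.8 kb (7.50 and 11.4, difference 2.35, adjusted p = 0.00567), the region 56.1 kb upstream (4.26 and 5.46, difference 1.42, adjusted p = 0.0145) and that at 555.6 kb (8.91 and 4.73, difference 1.85, adjusted p = 0.0444). They entered the test only through their peaks in IL-4 PT/LPS, and every other sample was set to the lowest score. Their direction was thus largely fixed in advance, and no conclusion is drawn from their adjusted p. The IL-4 PT/LPS lists of p65 were the longest, with 36738 and 38955 peaks, and the part of this in these differences was not tested.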

How the results depend on the processing

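With 2 samples a group, most calls of members rest on few values. Leaving out 1 sample at a time gave 4 to 6 called members for H3K27Ac, 0 to 3 for p300, and 0 for HDAC1, HDAC2, HDAC3, PU.1 and both RNAPII forms at 1 hr. For RNAPII-pS5 it gave 1 to 2 with LPS, 0 with 24 hr of IL-4, 2 with pretreatment under LPS, 1 to 3 after IL-4 and 0 to 1 for the difference, for RNAPII-pS2 0 to 1 in each of the 5 comparisons, and for p65 3 to 7, 1 to 3, 0 to 1, 0 to 4 and 0 to 1 in the same order. In the following, counts are members called. With the replicate block, which pairs samples that share only a number, RNAPII-pS2 pretreatment gave 0, p65 24 hr IL-4 1 and the p65 difference 0, and the other 20 counts stayed within 1.5 times.

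Without centring, RNAPII-pS2 gave 1 with LPS and 3 after IL-4, RNAPII-pS5 4 with LPS, and p65 1 with pretreatment and 10 after IL-4. Changes that turned were p65 with LPS at Tlr2 (0.575), Tlr5 (0.466) and Tlr9 (0.582), p65 after IL-4 at Tlr2 (1.52) and Tlr5 (1.03), p65 with LPS at the Tlr2 start (0.0638) and 21.4 kb upstream (0.621), and p300 at the Tlr1 promoter (0.507), which missed the threshold and ranged from -0.756 to 0.436 with 1 sample left out, turning without untreated replicate 2 (0.193) or IL-4 replicate 2 (0.436). The share of rises among all genes called moved, with centring and without, from 72.4% to 97.0% for p300, from 62.9% to 77.4% for RNAPII-pS5 pretreatment, from 54.1% to 64.3% for its difference, from 42.9% to 53.4% for RNAPII-pS2 with LPS, and for p65 from 78.0% to 92.6% with pretreatment, 65.3% to 99.3% after IL-4 and 66.4% to 86.6% for the difference.

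A floor 4 times as high gave 1 for RNAPII-pS2 at 1 hr and with LPS, 2 with 24 hr of IL-4, and 1 for RNAPII-pS5 with 24 hr of IL-4 and pretreatment and for p65 with 24 hr of IL-4 and the difference. It turned weak values: p65 at Tlr3 (difference, -0.985) and Tlr6 (LPS, -0.554), H3K27Ac at Tlr4 563.1 kb (-0.189) and Tlr5 9.8 kb (1.4), RNAPII-pS5 at Tlr8 10.2 kb (-0.0375), at Tlr13 0.3 kb (0.557) and 3.2 kb (0.0792), at Tlr9 6.4 kb (0.0844), at Tlr1 31.9 kb (-0.0746) and at Tlr8 0.2 kb (-0.382), and RNAPII-pS2 at Tlr5 31.8 kb (0.405). The upper 50% of peaks gave 1 for HDAC1, 2, 2, 1, 0 and 1 for RNAPII-pS2 at 1 hr, with LPS, 24 hr of IL-4, pretreatment and difference, 1, 2 and 1 for RNAPII-pS5 with LPS, 24 hr of IL-4 and pretreatment, and 1 for p65 pretreatment and difference. It turned RNAPII-pS5 at Tlr5 (after IL-4, 0.0327), Tlr13 (LPS, 0.117) and Tlr8 0.2 kb (-0.203), p65 at Tlr6 (-0.0219), and RNAPII-pS2 at Tlr5 31.8 kb and Tlr3 4.7 kb (0.144 each). Joining only the central 200 bp turned RNAPII-pS2 at the Tlr4 start (1.23). For these reversals the cause was not tested.

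The highest peak of each gene gave 1, 2, 0, 1 and 1 for RNAPII-pS2 with LPS, 24 hr of IL-4, pretreatment, after IL-4 and difference, 1 for RNAPII-pS5 with LPS, 24 hr of IL-4, pretreatment and difference, and 1 for p65 pretreatment and difference. Non-intergenic peaks gave 2 and 0 for RNAPII-pS2 with 24 hr of IL-4 and pretreatment, 1 and 2 for RNAPII-pS5 with 24 hr of IL-4 and difference, 1 for p300, 4 for p65 with LPS and 0 for its difference, and turned RNAPII-pS5 at Tlr5 after IL-4 (0.0167). Genes with a peak in every sample gave 1 for RNAPII-pS2 with 24 hr of IL-4, 1 and 0 for RNAPII-pS5 with LPS and pretreatment, 2 for p300, and 4 and 0 for p65 with LPS and difference, and asking for a peak in only 1 sample gave 1 for the p65 difference. At an adjusted p of at most 0.05 RNAPII-pS2 pretreatment gave 0, and p65 gave 3, 1, 0 and 0 with LPS, 24 hr of IL-4, after IL-4 and difference. At an unadjusted p of at most 0.05 there were 1 for HDAC3, 2 for RNAPII-pS2 at 1 hr and with 24 hr of IL-4, 2, 2 and 1 for RNAPII-pS5 at 1 hr, with 24 hr of IL-4 and difference, 2 for p300 and 5 for p65 with 24 hr of IL-4.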
